A study of Mus musculus with 16 samples.

Results

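The response of CA1 to spatial exploration was examined in the mice labelled wild type. CA1 is the hippocampal subfield whose pyramidal neurons give the main output of the hippocampus. Members were the genes present in both blocks of the deposited FPKM table (fragment counts scaled to transcript length and library depth) that reached 1 FPKM in at least 2 of the 5 WT-labelled libraries. They numbered 11678 of the 17986 genes shared by the blocks, and 10945 of them reached 1 FPKM in all 5 libraries. The exploration groups held 3 male C57Bl6 mice labelled wild type and 3 labelled Neil3-/- on that background, aged 3 to 6 months. They spent 20 min per day for 1 week in an open field with sides of 50 cm and their brains were taken 20 min after training ended. The home cage groups held 2 mice labelled wild type and 2 labelled Neil3-/-, of the same sex, background and age range, with no intervention. CA1 was cut by laser from 8 µm sections of frozen, unperfused brains, and each library came from 1 mouse. A further 6 samples of a learning condition were not analysed here.

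Exploration and table block coincide: the 3 exploration libraries stand in one block and the 2 home cage libraries in the other. An effect of exploration and a difference between the blocks in library making or quantification therefore cannot be told apart in any result below. FPKM summed to 410947.3 to 446616.4 over the shared genes in the 5 WT-labelled libraries. Neil3, the gene named in the labels, was at 0 in 4 WT-labelled libraries, and exploration library 3 had 0.05 FPKM. It stood at 8.35 to 15.22 FPKM in the 5 libraries labelled Neil3-/-, a mean difference of 12.85 FPKM (exact two-sided permutation p = 0.00794, the smallest that 10 libraries allow). The transcript was thus present where the label names its loss, so the groups are called WT-labelled and KO-labelled throughout. CA1 pyramidal markers were present in all 5 WT-labelled libraries: Neurod6, a transcription factor of these neurons, read 402.18 and 408.71 FPKM in the home cage and 423.69, 427.03 and 451.27 FPKM after exploration. None of the 9 CA1 markers tested passed limma's test at an adjusted p under 0.05 (1 had an unadjusted p under 0.05, and 0 passed with the WT-labelled libraries fitted alone), and their summed level was 1736.2 and 1699.8 FPKM in the home cage and 1809.1, 1821.6 and 1880.9 FPKM after exploration.

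When a neuron is strongly activated, calcium entry and kinase cascades switch on immediate early genes within minutes, without new protein synthesis. A first class encodes transcription regulators such as Fos and the Egr family, and a second encodes proteins acting at synapses or on signalling, such as Arc. In the hippocampus these RNAs rise when an animal explores a place, and phosphatases such as Dusp1 then restrain the MAP kinases that drive them.

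Activity genes stood among the largest rises in the exploration libraries. Of the 19 called higher below, 13 had a promoter entry in the RefSeq table (build GRCm38.p6). The 6 of these with the largest rise are shown here. Arc, Ier2, Trib1 and Egr1 had no entry. Each line gives the 250 bases before the annotated start, 5′ to 3′ along the gene. Capitals mark TGACG on either strand, read as CGTCA where it lies on the opposite one. This is the core of the cyclic AMP response element, through which the factor CREB acts. Egr2 had 5 entries, and the most upstream start was taken.

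Egr2 (chr10:67535249-67535498, plus strand): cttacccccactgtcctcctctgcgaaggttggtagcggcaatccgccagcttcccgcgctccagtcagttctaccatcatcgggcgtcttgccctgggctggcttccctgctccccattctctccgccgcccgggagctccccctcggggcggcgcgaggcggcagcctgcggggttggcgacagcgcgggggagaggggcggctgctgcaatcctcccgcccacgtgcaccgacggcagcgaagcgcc
Fos (chr12:85473640-85473889, plus strand): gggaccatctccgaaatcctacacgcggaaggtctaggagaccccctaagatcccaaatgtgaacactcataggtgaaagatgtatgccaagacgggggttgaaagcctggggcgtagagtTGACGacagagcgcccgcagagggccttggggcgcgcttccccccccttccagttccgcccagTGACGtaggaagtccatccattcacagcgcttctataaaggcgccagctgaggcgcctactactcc
Btg2 (chr1:134079156-134079405, minus strand): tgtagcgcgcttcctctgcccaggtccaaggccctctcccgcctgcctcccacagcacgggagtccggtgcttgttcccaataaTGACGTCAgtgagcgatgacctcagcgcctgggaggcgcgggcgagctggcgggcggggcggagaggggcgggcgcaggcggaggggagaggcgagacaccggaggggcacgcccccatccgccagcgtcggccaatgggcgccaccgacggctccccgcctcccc
Junb (chr8:84978749-84978998, minus strand): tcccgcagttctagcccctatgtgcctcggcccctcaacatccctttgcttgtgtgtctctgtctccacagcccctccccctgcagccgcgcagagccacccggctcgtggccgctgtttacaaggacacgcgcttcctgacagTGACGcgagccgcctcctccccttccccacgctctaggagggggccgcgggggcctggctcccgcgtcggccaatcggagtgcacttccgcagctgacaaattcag
Egr4 (chr6:85513590-85513839, minus strand): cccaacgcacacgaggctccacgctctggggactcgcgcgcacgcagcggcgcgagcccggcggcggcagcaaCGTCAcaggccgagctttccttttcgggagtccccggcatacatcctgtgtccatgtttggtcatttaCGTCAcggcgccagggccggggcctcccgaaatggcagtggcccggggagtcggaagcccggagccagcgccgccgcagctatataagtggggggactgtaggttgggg
Dusp1 (chr17:26508473-26508722, minus strand): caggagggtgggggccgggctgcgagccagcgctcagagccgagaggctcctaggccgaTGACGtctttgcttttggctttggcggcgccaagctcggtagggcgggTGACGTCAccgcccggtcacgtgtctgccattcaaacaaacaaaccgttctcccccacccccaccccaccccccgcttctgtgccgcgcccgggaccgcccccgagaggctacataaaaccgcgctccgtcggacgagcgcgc

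TGACG was found in 5 of these 6 windows, at 66 and 129 bases before the start in Fos, counted to the first base of the match. The full element TGACGTCA, whose strands each hold TGACG, was found in Btg2 and Dusp1. TATAA began 33 bases before the start in Fos and 27 bases before it in Egr4. The CArG box, the site bound by serum response factor, was found in none of the 6 windows, which says only that its letters are not within these 250 bases. Searched the same way on both strands, TGACG was in 17.8% of the 27025 promoters of the table, in 28.5% of the 8965 promoters of members, in 29 of 54 promoters of all activity genes tested, and in 9 of 13 of those called higher below. For TGACGTCA these counts were 1.6%, 3.01%, 6 of 54 and 2 of 13. GGGCGG, the core of a GC box, was in 33.0%, 60.7%, 39 of 54 and 8 of 13. These matches describe letters and no measured binding.

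Differences are given as log2 changes of FPKM + 1, exploration minus home cage, with the standard error (SE) of the fit. This scale understates the change of genes at low FPKM. Each gene was tested with limma over all 10 libraries with values, and it was called at a Benjamini-Hochberg adjusted p under 0.05 over all members. Of the 11678 members, 751 were called (6.43%), of which 240 were higher (2.06%) and 511 lower (4.38%) after exploration. The median log2 change of all members was -0.02 with quartiles of -0.16 and 0.11. A further limit lies in the filter: 99 members reached 1 FPKM in exploration libraries only and 128 in home cage libraries only, so the filter took them in through the group where they were high. They hold 10 of the members called higher and 61 of those called lower, and among the 11451 other members 230 were called higher and 450 lower. A log2 rise above 1 was seen in 20 members, all of them called. A fall below -1 was seen in 77, of which 75 were called. All 3 exploration libraries stood above both home cage libraries in 2320 members (19.9%) and below both in 3309 (28.3%). The labels do not say whether the mice of a group shared a litter or a day, and p-values measure only the spread between these libraries.

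**Figure D1:**
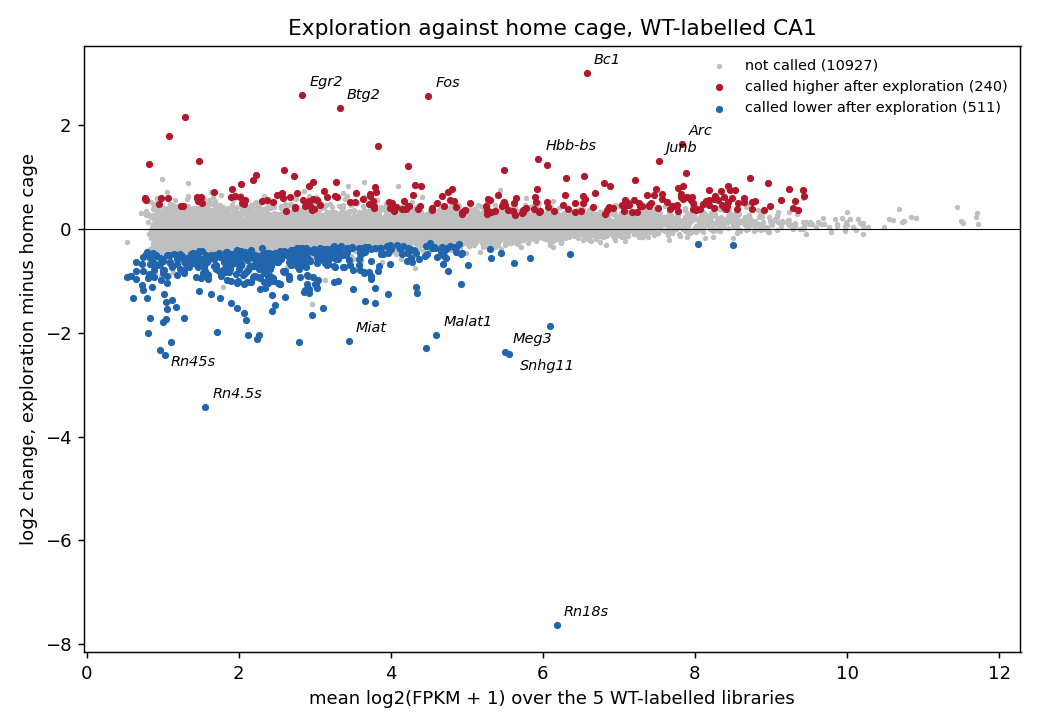
Log2 change, exploration minus home cage, of each of the 11678 members (y axis, log2 of FPKM + 1) against its mean log2(FPKM + 1) over the 5 WT-labelled libraries (x axis); red and blue points are the 240 members called higher and the 511 called lower. Activity genes and Bc1 lie at the top, and long noncoding RNAs and ribosomal RNA at the bottom, with Rn18s at -7.63.

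The number of calls rested on single libraries. It fell to 87 without home cage library 2 and to 250 without home cage library 1. A lone home cage library was then assumed to vary like the other groups. Without exploration library 1, 2 or 3 it was 236, 321 and 372. Fitted on the 5 WT-labelled libraries alone, with 3 residual degrees of freedom, it was 1710 and held 750 of the 751.

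Of 32 immediate early transcription regulators tested, 12 were called higher and none lower, with a median log2 change of 0.38 beside -0.02 for all members. Egr2, Fos and Btg2 had the largest rises among them. Of the effectors, 5 of 22 were called higher and none lower (median 0.20), and of the MAP kinase feedback inhibitors 2 of 12 were called higher and none lower (median 0.22). At an unadjusted p under 0.05, 1 member of each of these lists was lower. Of all members, 2.06% were called higher and 4.38% lower.

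Fos, which encodes a subunit of the AP-1 transcription factor, read 16.28 and 2.50 FPKM in the home cage and 41.15, 43.66 and 49.65 FPKM after exploration. The groups did not overlap, and the home cage libraries differed more from each other than the exploration libraries did. Fos rose by a log2 change of 2.55 (SE 0.45, limma adjusted p = 0.00795), a 4.77-fold ratio of the group means. Egr2, a zinc finger transcription factor, read 2.73 and 0.59 FPKM against 10.69, 15.77 and 14.96 FPKM. It rose by 2.59 (SE 0.27, limma adjusted p = 0.000319), again with no overlap. Btg2, a co-regulator of transcription that restrains proliferation, read 4.11 and 1.84 FPKM against 16.67, 18.17 and 19.62 FPKM and rose by 2.33 (SE 0.23, limma adjusted p = 0.000238). It had the tightest exploration group of these 3 genes, with a mean of 18.2 ± 1.48 FPKM (SD, n = 3).

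Arc, whose protein takes part in the removal of AMPA receptors from synapses, was the effector with the largest rise. It read 186.39 and 68.75 FPKM in the home cage and 319.83, 368.46 and 385.10 FPKM after exploration. Every exploration library exceeded the higher home cage library. The log2 change was 1.65 (SE 0.32, limma adjusted p = 0.0123). Junb, a partner of Fos in AP-1, read 134.66 and 82.63 FPKM against 228.99, 281.38 and 282.55 FPKM, a rise of 1.31 (SE 0.18, limma adjusted p = 0.00194). Ier2, a nuclear immediate early protein, read 11.32 and 3.35 FPKM against 21.30, 20.81 and 21.55 FPKM and rose by 1.60. The 3 exploration values of Ier2 lay within 1 FPKM of each other, while its home cage values lay far apart.

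Egr1, the best known member of its family, was already abundant in the home cage at 204.89 and 108.66 FPKM and read 294.33, 340.14 and 318.29 FPKM after exploration. It rose by 1.08 (SE 0.22, limma adjusted p = 0.0145). Its sister gene Egr4 read 49.39 and 30.45 FPKM against 78.28, 100.97 and 100.68 FPKM and rose by 1.23 (SE 0.19). Both genes had separate groups, with home cage library 2 the lowest of the 5 in each. The other regulators called higher were Fosb, Nr4a1, Klf2, Csrnp1 and Egr3, with log2 changes of 1.04, 0.84, 0.72, 0.62 and 0.33.

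Not every activity gene passed the test. Npas4, an activity-dependent transcription factor of neurons, read 9.83 and 5.30 FPKM in the home cage and 11.74, 11.11 and 12.47 FPKM after exploration (log2 change 0.63, SE 0.19, limma adjusted p = 0.0716). Its groups did not overlap, and its lowest exploration value stood close to home cage library 1. Fosl2, another AP-1 subunit, differed by 0.64 (adjusted p = 0.0658). Bdnf, the neurotrophin, read 18.53 and 18.89 FPKM against 22.09, 20.06 and 19.77 FPKM (0.13, adjusted p = 0.417), and Homer1, a postsynaptic scaffold gene with an activity-induced short form, differed by 0.10 (adjusted p = 0.593) at the level of the whole gene. Jun overlapped between the groups (0.50, adjusted p = 0.482).

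Among the remaining effectors, Trib1, a pseudokinase, read 4.51 and 1.55 FPKM against 7.11, 6.90 and 7.85 FPKM and rose by 1.14. It differed by 0.59 against home cage library 1 alone and by 1.70 against library 2 alone, and it was no longer called without home cage library 2 or without any 1 of the 3 exploration libraries. Gadd45b, a stress and growth arrest gene, rose by 0.85 and Tiparp, an ADP-ribosyltransferase, by 0.82, both with an SE of 0.13 to 0.14. Sik1, a kinase, completed the 5 effectors called at 0.60. Gadd45g and Arl4d were higher by 0.62 and 0.84 without passing the test (adjusted p = 0.0520 and 0.0858). Dusp1, the phosphatase that inactivates several MAP kinases, read 14.01 and 7.53 FPKM against 24.66, 23.88 and 26.78 FPKM and rose by 1.20 (SE 0.19, limma adjusted p = 0.00431). Dusp6, which acts on ERK, rose by 0.35 from 81.15 and 74.34 FPKM to 93.06, 102.78 and 101.65 FPKM. Dusp5 and Spry4 did not pass (0.83 and 0.40, adjusted p = 0.111 and 0.108). Of 10 genes of the later activity response, 1 was called: Inhba, the activin subunit, at 0.54, and the list's median was 0.17. Over all members 2.06% were called higher. Inhba was no longer called when any 1 of the 5 WT-labelled libraries was left out (0.40 to 0.67) or with the length and GC trends described below removed (0.42).

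**Figure D2:**
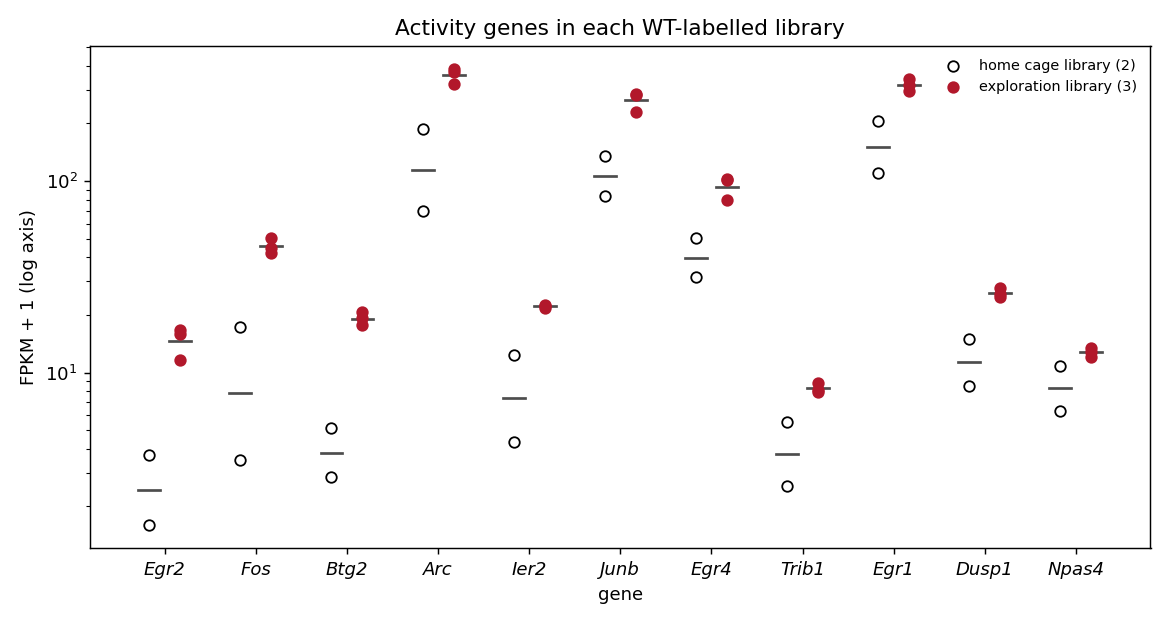
FPKM + 1 (log axis) of 11 activity genes in each WT-labelled library; open circles are the 2 home cage libraries, filled circles the 3 exploration libraries, and bars the geometric mean of FPKM + 1. In all 11 genes the exploration values lie above both home cage values, and the home cage pair lies far apart, as for Fos at 16.28 and 2.50 FPKM. The 11 were picked, many by a rule that asks for separate groups. Of all 66 activity genes tested, the exploration libraries stood above both home cage libraries in 43 and below both in 4. Among all members these shares were 19.9% and 28.3%.

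The 2 home cage libraries were not alike in these genes. Library 1 stood above library 2 in 18 of the 19 activity genes called higher and in 44 of all 66 tested, against 43.3% of all members. Leaving out home cage library 2 left 6 of the 19 called, and leaving out library 1 left 15. Without exploration library 1, 2 or 3, 12, 10 and 11 were called. With no filter on low values 7 of the 19 were called, and Fos, Arc, Egr1, Ier2 and Trib1 were not among them. Fos was also not called with robust eBayes. Against library 1 alone Fos differed by 1.40, Egr2 by 1.97 and Btg2 by 1.90, while Arc and Egr1 were no longer called (0.93 and 0.63). Against library 2 alone the differences were larger, at 3.71 for Fos and 2.36 for Arc. Npas4 was called with library 2 alone (1.02) and differed by 0.24 against library 1 alone. Library 2 also had less of the CA2 and CA3 markers: Pcp4, a calmodulin regulator enriched in CA2, read 84.32 and 10.66 FPKM in home cage libraries 1 and 2 and 56.31, 49.69 and 51.36 FPKM after exploration. Ttr, the choroid plexus marker, read 218.70 and 3.89 FPKM in the home cage and 118.06, 93.56 and 2.38 FPKM after exploration. The part of these marker levels in the activity genes' differences was not tested.

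In the KO-labelled libraries 3337 of the 11678 members were called in the same contrast (28.6%), 1418 of them higher. Of the 19 activity genes 16 were also called higher there, and Fosb, Klf2 and Sik1 were not. The log2 change there was 2.45 for Fos, 1.68 for Arc, 1.28 for Junb and 1.22 for Egr1, beside 2.55, 1.65, 1.31 and 1.08 in the WT-labelled libraries. Npas4 was called there, at 1.47. The KO-labelled libraries stand in the same blocks of the table, so they do not separate exploration from block.

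On the scale of log2(FPKM + 1) the largest rise was that of Bc1, a short cytoplasmic RNA made by RNA polymerase III that neurons carry into dendrites. It read 30.37 and 22.92 FPKM in the home cage and 223.80, 195.30 and 235.57 FPKM after exploration. No library came near the other group, and the log2 change was 3.00 (SE 0.34, limma adjusted p = 0.000483), a ratio of 8.19. By the ratio of group means 2 members stood above it, Ccdc36 at 30.2 and Egr2 at 8.32, beside the 2 listed at 0 in the home cage. Ccdc36 read 0.06 and 0.04 FPKM in the home cage and 1.14, 1.46 and 1.93 FPKM after exploration. It reached 1 FPKM in exploration libraries only, so the filter took it in through the group where it was high. With a pseudocount of 0.1 the log2 change was 3.04 for Bc1 and larger for at least 4 other named genes, Egr2 (3.29), Ccdc36 (3.40), Mir703 (4.68) and Rn28s1 (5.15). The change of Bc1 was 1.76 in the KO-labelled libraries. The annotated RNA of 168 bases is shown because it was the most abundant of these RNAs after exploration and its groups were far apart. The gene lies at chr7:144914470-144914637 on the plus strand in GENCODE vM21 (GRCm38), and capitals mark runs of at least 4 A, which make up its A-rich middle.

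Bc1: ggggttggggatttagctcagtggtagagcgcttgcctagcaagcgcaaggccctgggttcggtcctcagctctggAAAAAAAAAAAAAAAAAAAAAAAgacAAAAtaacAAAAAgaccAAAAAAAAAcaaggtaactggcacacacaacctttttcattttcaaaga

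Other noncoding RNAs differed widely, in both directions. Rn18s, the 18S ribosomal RNA, read 1714.68 and 1743.79 FPKM in the home cage and 5.69, 8.61 and 9.46 FPKM after exploration, a log2 fall of -7.63 (SE 0.17, limma adjusted p = 2.55e-10). This was the largest difference of any member on this scale, and it was -7.72 in the KO-labelled libraries. Rn45s, the precursor, read 3.83 and 4.45 FPKM against 0.01, 0.03 and 0.03 FPKM, and Rn4.5s fell from 11.88 and 10.72 FPKM to 0, 0 and 0.45 FPKM. Rn28s1 went the other way, listed at 0 in both home cage libraries and at 2.24, 4.57 and 3.96 FPKM after exploration. Mir703, an annotated microRNA locus, was likewise listed at 0 in both home cage libraries and at 2.82, 2.78 and 1.89 FPKM after exploration. Rn45s and Rn4.5s reached 1 FPKM in home cage libraries only, and Rn28s1 and Mir703 in exploration libraries only, so these 4 were taken in through the group where they were high. Ribosomal RNAs carry no long poly(A) tail, and repeated copies make the assignment of such RNAs uncertain. Rn7s1 and Rn7s2, copies of the signal recognition particle RNA, held identical values in each WT-labelled library.

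Several long noncoding RNAs that stay in the nucleus were lower after exploration. Of 9 tested, 5 were called lower and none higher, with a median log2 change of -1.44. Kcnq1ot1 among them reached 1 FPKM in home cage libraries only, and without it 4 of 8 were called lower (median -1.74). Meg3, an imprinted nuclear RNA, read 114.11 and 128.85 FPKM in the home cage and 22.02, 21.21 and 24.43 FPKM after exploration (log2 change -2.38, SE 0.34, limma adjusted p = 0.00286). Malat1, a marker of nuclear speckles, read 50.29 and 60.92 FPKM against 11.20, 11.32 and 16.19 FPKM (-2.04, SE 0.19). Snhg11, a small nucleolar RNA host gene rich in neurons, read 116.36 and 138.95 FPKM against 22.40, 22.49 and 24.32 FPKM (-2.41, SE 0.42). In all 3 genes each home cage library exceeded every exploration library several times over.

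Miat fell by -2.15. Kcnq1ot1, an imprinted antisense RNA, read 1.22 and 1.47 FPKM against 0.19, 0.21 and 0.21 FPKM (-0.96). Peg13, an imprinted RNA of the same list, differed by -0.12 (adjusted p = 0.465) and Mirg by -1.44 (adjusted p = 0.0863). The 12 largest falls also held Ipw, Ftx, Mir124a-1hg and A330023F24Rik, all noncoding genes, between -2.30 and -2.05, and the gene models Gm9839 and Gm5415, which reached 1 FPKM in home cage libraries only. In the KO-labelled libraries the list's median was -1.16, with Meg3 at -2.34 and Malat1 at -1.20. By annotated class, 38 of the 319 long noncoding members (11.9%) were called lower and 3 higher. Of 11264 protein-coding members, 448 (3.98%) were called lower and 234 higher. Of 55 transcribed pseudogenes, 16 were called lower and 1 higher. Without the members that reached 1 FPKM in 1 group only, 23 of 283 long noncoding (8.13%), 413 of 11092 protein-coding (3.72%) and 8 of 44 pseudogene members were called lower. With home cage library 2 left out, 3 of the 5 nuclear RNAs were called, and Snhg11 and Miat, at -2.29 and -2.05, were not.

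Most genes of cytosolic ribosomal proteins rose. Of 78 tested, 52 were called higher and none lower. All 78 had a positive log2 change, and in 77 the exploration libraries stood above both home cage libraries. Among all members 2.06% were called higher and 45.6% were positive. In 19.9% of all members the exploration libraries stood above both home cage libraries. The median of the ribosomal protein list was 0.44. Summed over all 81 genes of the list, tested or not, the level was 17542.6 and 17371.3 FPKM in the home cage. After exploration it was 25202.9, 24218.8 and 24091.9 FPKM. Rps18, a subunit of the small ribosome particle, read 156.00 and 157.18 FPKM against 275.83, 265.52 and 270.80 FPKM (log2 change 0.79, SE 0.11, limma adjusted p = 0.00283), with a gap far wider than the spread in either group. Rpl34 and Rpl13a, of the large particle, rose by 0.83 and 0.75.

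Subunits of the respiratory chain and ATP synthase showed the same direction with smaller sizes. Of 78 nuclear-encoded genes of oxidative phosphorylation 19 were called higher and none lower (median 0.29, 76 of 78 positive). Ndufb9, a subunit of complex I, read 183.02 and 182.93 FPKM against 286.42, 270.81 and 290.27 FPKM (0.62, SE 0.10). Atp5e, a small subunit of ATP synthase, rose by 0.78 and Uqcr10, of complex III, by 0.63. Of the proteasome genes 4 of 35 were called higher, among them the catalytic subunits Psmb6, Psmb7 and Psmb10 (0.37, 0.34 and 0.45), with a median of 0.21. Of the mitochondrial ribosomal proteins 4 of 76 were called higher (median 0.15), led by Mrpl33 at 0.66. None of either list was called lower, and no member of them was lower at an unadjusted p under 0.05.

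These 4 lists hold mainly short transcripts, and the response followed transcript length. A length was available for 97.1% of the members. It was that of the longest GENCODE vM21 transcript linked to RefSeq, or of the longest transcript where none was linked. In the shortest quartile, up to 1967 bases, 179 of 2835 genes (6.31%) were called higher and 33 lower, with a median of 0.13. In the longest quartile, from 4619 bases, 4 were called higher and 244 (8.61%) lower, with a median of -0.14. Over 20 bins of equal size the median went from 0.24 at 750 bases to -0.24 at 9787 bases, and in the KO-labelled libraries from 0.28 to -0.31. Of the ribosomal protein genes 74 of 78, and of the oxidative phosphorylation genes 69 of 78, lay in the shortest quartile. So did 25 of 35 proteasome and 53 of 76 mitochondrial ribosomal genes. These last 2 lists had 11.4% and 5.26% called higher, beside 6.31% in that quartile. That quartile without the ribosomal protein, oxidative phosphorylation and proteasome lists still had a median of 0.11.

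After trends with length and GC content were removed in each library, a step added after seeing the data, the ribosomal protein list had a median of 0.22 with 24 called higher. The oxidative phosphorylation list then had a median of 0.07 with 6 called higher and 2 lower, and the proteasome list had 0 called (18 higher at an unadjusted p under 0.05 before that step). The activity genes moved less: 17 of the 19 were still called, with Fos at 2.50 and Arc at 1.64. The nuclear noncoding RNAs had a median of -1.60, with the same count of 5 called. Genes with no transcript length were left as they were in this step. It could therefore not move the log2 change of Kcnq1ot1, 1 of the 5, or those of Bc1 and Rn18s. What gave rise to the length trend was not tested.

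These calls also rested on single libraries: without home cage library 2, 1 ribosomal protein gene and 0 oxidative phosphorylation genes were called (56 of the latter had an unadjusted p under 0.05 with all libraries). The counts were 8 and 1 without home cage library 1, and 13 and 2, 23 and 7, and 29 and 5 without exploration library 1, 2 or 3. No proteasome gene was called without any 1 of the 5 WT-labelled libraries. No mitochondrial ribosomal gene was called without home cage library 2 or without any 1 of the exploration libraries, while leaving out home cage library 1 left 1. Each list had 1 call when KO-labelled exploration library 2 was left out.

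**Figure D3:**
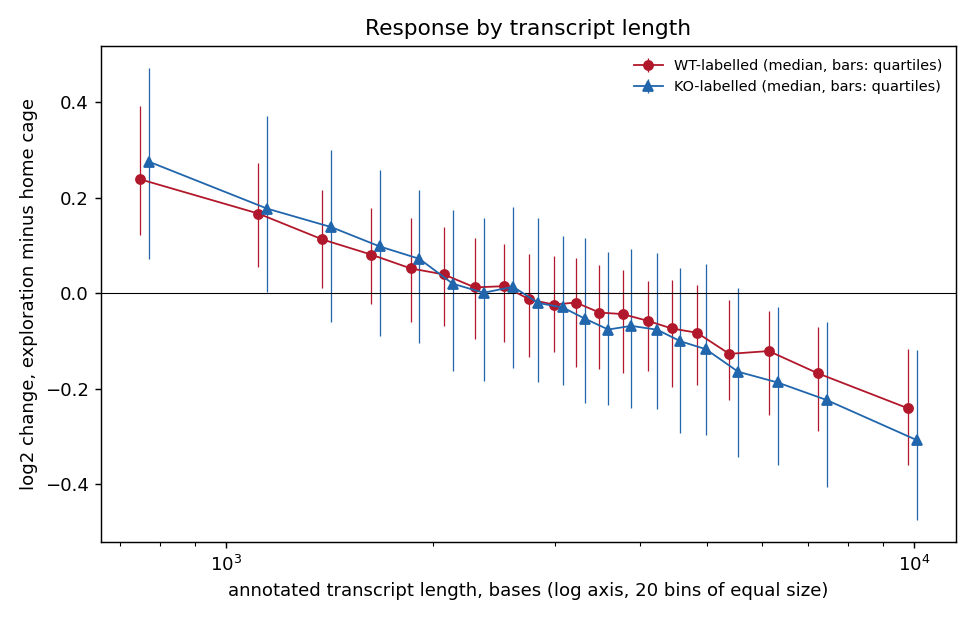
Median log2 change, exploration minus home cage (y axis), of members in 20 bins of annotated transcript length in bases (x axis, log scale); bars span the quartiles of each bin, red circles are the WT-labelled and blue triangles the KO-labelled libraries, drawn slightly to the right. The median declines from 0.24 to -0.24 in the WT-labelled and from 0.28 to -0.31 in the KO-labelled libraries.

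Few genes of synapses and excitability were called, and in the lists of receptors and channels these were lower. Over all members 4.38% were called lower, and in the longest length quartile 8.61%. Of 23 voltage-gated sodium and calcium channel genes 5 were called lower and none higher (median -0.23). Cacna1d, an L-type calcium channel, read 5.83 and 6.62 FPKM in the home cage and 3.27, 2.74 and 2.98 FPKM after exploration (log2 change -0.85, SE 0.14, limma adjusted p = 0.00589), and Cacna1e, the R-type channel, read 14.84 and 19.21 FPKM against 9.96, 9.39 and 7.51 FPKM (-0.85, SE 0.18). Both had clearly separate groups. Scn1a and Scn8a, which carry sodium currents, fell by -0.51 and -0.45, and Cacna1h, a T-type channel, by -0.51. The median annotated length in this list was 8139 bases. With the length and GC trends removed 2 of the 5 were called, and without home cage library 2 none was (10 had an unadjusted p under 0.05 with all libraries). The count was 2 without home cage library 1, and 2, 1 and 3 without exploration library 1, 2 or 3.

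Among 23 ionotropic glutamate receptor and auxiliary genes, 3 were called lower and none higher (median -0.06). Gria1, the main AMPA receptor subunit of CA1, read 411.40 and 410.66 FPKM in the home cage and 327.20, 332.61 and 329.27 FPKM after exploration (-0.32, SE 0.08, limma adjusted p = 0.0331), a small difference that was wider than the spread in either group. Grin2b, an NMDA receptor subunit, read 11.25 and 9.83 FPKM against 6.26, 7.05 and 7.35 FPKM (-0.55, SE 0.11), and Shisa7, an auxiliary subunit, fell by -0.48. No gene of the list was called without home cage library 1, home cage library 2 or exploration library 1 (4 were lower at an unadjusted p under 0.05 with all libraries), and 1 was without exploration library 2 or 3. With the length and GC trends removed Shisa7 was called (-0.38), and Gria1 and Grin2b were at -0.21 and -0.13.

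No gene was called by limma in 6 other neuronal lists. At an unadjusted p under 0.05, in the order higher and lower, the metabotropic glutamate receptors had 0 and 3 of 6, the GABA receptors 0 and 1 of 13, the postsynaptic scaffolds and calcium signalling genes 1 and 4 of 26, the adhesion genes 0 and 3 of 18, the presynaptic genes 0 and 3 of 26, and the potassium and HCN channels 1 and 7 of 45. Fitted on the 5 WT-labelled libraries alone, these lists had 2, 1, 4, 2, 3 and 4 genes called, all lower. Their medians lay between -0.11 and 0.05. Shank2, a scaffold of excitatory synapses, read 12.06 and 13.67 FPKM against 9.47, 9.67 and 7.07 FPKM (-0.52, adjusted p = 0.123). Kcnn2, a calcium-activated potassium channel, differed by -0.35 (adjusted p = 0.0507).

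Peptide, stress and clock genes gave single calls. Over all members 2.06% were called higher and 4.38% lower, so 1 call in such a short list says little about it. Sst, the peptide somatostatin of a class of interneurons, read 56.78 and 62.98 FPKM in the home cage and 148.38, 133.93 and 92.84 FPKM after exploration, and it rose by 1.02 (SE 0.16, limma adjusted p = 0.00419). It was the only one of 11 neuropeptide genes and of 12 interneuron genes called, and it differed by 0.12 in the KO-labelled libraries (adjusted p = 0.583) and by 0.74, no longer called, with the length and GC trends removed. Pvalb, another interneuron marker, differed by 0.41 (adjusted p = 0.0643) and Npy by 0.46 with overlapping groups.

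Dnajb1, a chaperone partner of Hsp70, rose by 0.55 and was the only one of 24 heat shock genes called. Mt2, a metallothionein induced by glucocorticoids and metals, rose by 0.51, 1 of 15 glucocorticoid-responsive genes. Per3, a clock gene, read 4.69 and 4.30 FPKM against 2.83, 2.72 and 2.41 FPKM and fell by -0.59, 1 of 18 clock genes, while Arntl and Ciart differed by -0.43 and 0.46 (adjusted p = 0.0741 and 0.133). None of 17 endoplasmic reticulum stress genes and none of 20 cholesterol synthesis genes was called by limma, with 0 and 1 at an unadjusted p under 0.05 and 0 in both when the WT-labelled libraries were fitted alone. Of 13 replication-dependent histone genes, whose RNAs lack poly(A) tails, 2 were called higher and the median was 0.04. Hist2h2aa1 rose by 0.38. Hist1h2ao read 0.58 and 0.65 FPKM against 3.98, 3.11 and 2.11 FPKM (1.31), so it reached 1 FPKM in exploration libraries only, and without it 1 of 12 was called. Leaving out home cage library 1 or home cage library 2 ended the calls of Dnajb1 (0.56 and 0.55), Mt2 (0.46 and 0.57), Per3 (-0.54 and -0.64) and Hist2h2aa1 (0.45 and 0.30). With the length and GC trends removed Mt2 differed by 0.15, Per3 by -0.48 and Hist2h2aa1 by 0.04, and none of the 3 was called.

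**Figure D4:**
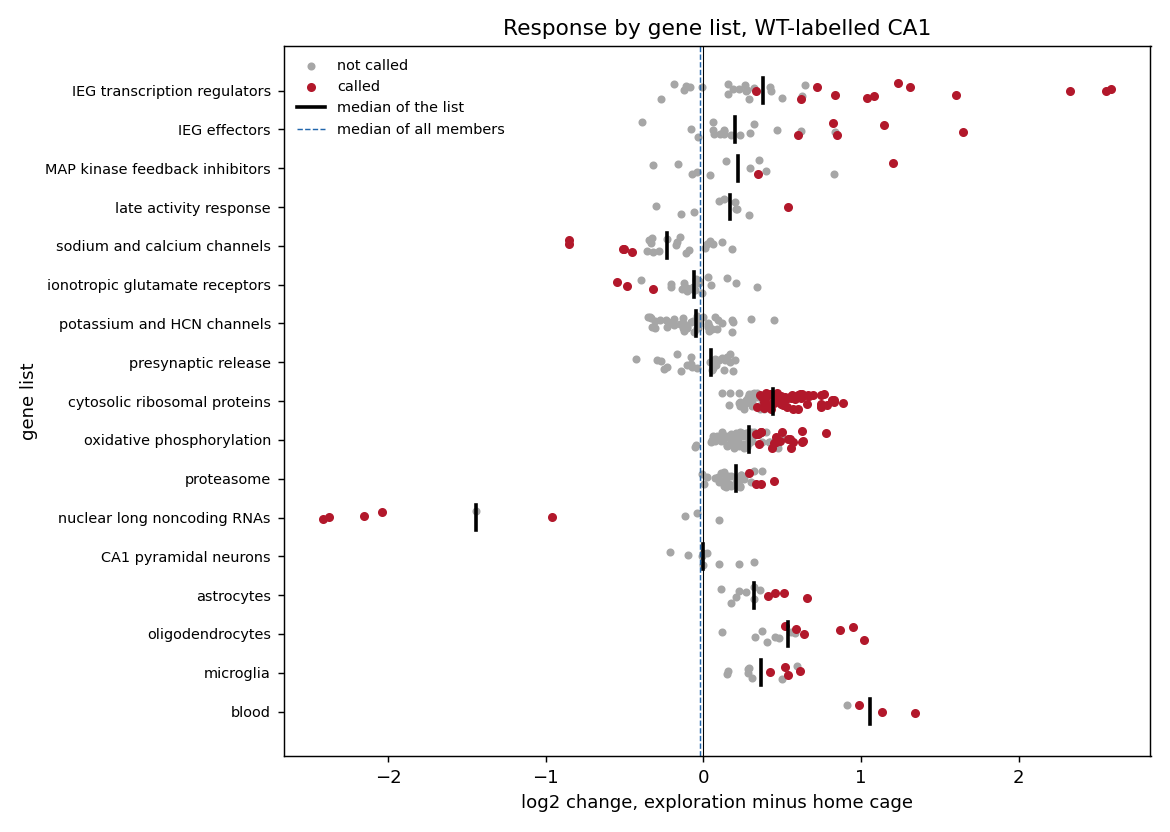
Log2 change, exploration minus home cage (x axis), of the tested genes of 17 lists in the WT-labelled libraries (y axis); red points were called, grey points were not, black bars are list medians and the dashed line the median of all members, -0.02. Ribosomal protein genes lie wholly above 0, nuclear noncoding RNAs mostly below, and the immediate early lists have long tails to the right.

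Markers of glia and of blood were mostly higher in the exploration libraries, though fewer than 1 in 2 glial markers were called. Among all members 45.6% had a positive log2 change and 2.06% were called higher. All 14 oligodendrocyte markers had a positive log2 change and 6 were called (median 0.54). All 12 astrocyte markers were positive with 4 called (0.32), as were all 12 microglial markers with 4 called (0.37; 1 of the 12 reached 1 FPKM in exploration libraries only), and all 7 endothelial markers with 0 called (2 at an unadjusted p under 0.05, 1 called with the WT-labelled libraries alone, median 0.20). Markers of oligodendrocyte precursors (2 of 2, median 0.23) and mural cells (3 of 3, median 0.39) were also all positive, with none called. Of these, 1 and 2 had an unadjusted p under 0.05, and 0 and 2 were called with the WT-labelled libraries alone. Of the 3 mural markers 1 reached 1 FPKM in exploration libraries only. Other lists were mixed, with none called beyond Sst. Among them 10 of 12 interneuron markers were positive (median 0.17), as were 1 of 2 choroid plexus markers (-0.04). So were 1 of 2 markers of meningeal fibroblasts (0.11) and 1 of 3 of neurons outside the hippocampus (-0.16). In bulk tissue, fewer cells of a type and less RNA per cell cannot be told apart.

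Mbp, which encodes myelin basic protein, read 111.03 and 88.58 FPKM in the home cage and 199.63, 268.64 and 132.75 FPKM after exploration. It rose by 0.95 (SE 0.22, limma adjusted p = 0.0283), with exploration library 3 the lowest of its group. Mobp, also of myelin, rose by 1.02, and Opalin, a membrane protein of oligodendrocytes, by 0.87. The summed oligodendrocyte markers were 195.4 and 169.5 FPKM against 332.2, 423.3 and 235.5 FPKM, and the astrocyte sum was 186.5 and 203.1 FPKM against 282.7, 289.6 and 224.5 FPKM. Exploration library 3 was the closest to the home cage in both sums.

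Gfap, the astrocyte filament, read 13.25 and 14.68 FPKM against 25.21, 26.75 and 17.08 FPKM (0.66, SE 0.17), and Aldoc, an astrocytic aldolase, rose by 0.51. P2ry12 and Tmem119, of microglia, rose by 0.52 and 0.61. In the KO-labelled libraries the medians of the oligodendrocyte, astrocyte and microglial lists were 0.10, -0.05 and 0.10. No gene of these 3 lists was called in the difference between the labelled genotypes. Without home cage library 2, 1, 0 and 0 genes of these lists were called, without home cage library 1 it was 1, 0 and 1, without exploration library 1 it was 1, 0 and 1, and without exploration library 2 it was 2, 0 and 0. Without exploration library 3 the microglial count was 2. Without KO-labelled exploration library 2 the astrocyte count was 2. With the length and GC trends removed the astrocyte markers Gja1, S100b and Gfap were no longer called (0.43, 0.34 and 0.63). The same held for the microglial markers C1qa, C1qc and Tmem119 (0.22, 0.37 and 0.56). With no filter on low values 1 oligodendrocyte, 0 astrocyte and 0 microglial markers were called.

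Haemoglobin genes rose as well, in tissue that was not perfused. Hbb-bs, a beta globin, read 42.20 and 27.59 FPKM in the home cage and 97.02, 92.54 and 76.35 FPKM after exploration (log2 change 1.34, SE 0.23, limma adjusted p = 0.00665). Of the 4 globin genes tested 3 were called higher. With the length and GC trends removed the alpha globin genes Hba-a1 and Hba-a2 were no longer called (0.70 and 0.78). With no filter on low values none of the 4 was called. The blood list of 5 genes, which adds the untested Alas2, summed to 154.1 and 94.9 FPKM against 308.1, 274.0 and 227.6 FPKM. In the KO-labelled libraries Hbb-bs rose by 1.01. Without home cage library 2 none of the 4 was called (all 4 had an unadjusted p under 0.05 with all libraries), and without exploration library 1 or 2 it was 1 each. The part of glial and blood RNA in the other differences was not tested.

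**Figure D5:**
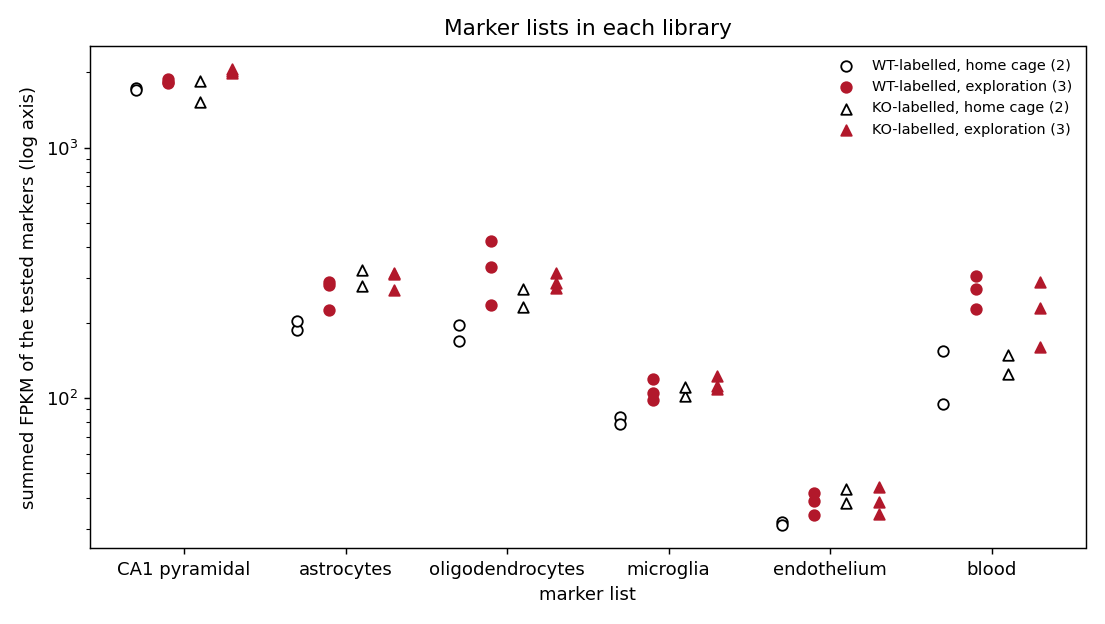
Summed FPKM of the tested markers of 6 lists (x axis) in each of the 10 libraries (y axis, log scale); open symbols are home cage and filled red symbols exploration, circles WT-labelled and triangles KO-labelled. In the WT-labelled libraries glial and blood sums are higher after exploration, as for oligodendrocytes at 169.5 and 195.4 against 235.5 to 423.3 FPKM, while CA1 marker sums lie close together.

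Calls in the WT-labelled and KO-labelled libraries overlapped. Of all 11678 members, 1418 were called higher and 1919 lower in the KO-labelled response. Of the 240 members called higher in the WT-labelled response 156 were called higher in the KO-labelled one, which is 65.0% of the former and 11.0% of the latter. Of the 511 called lower 332 were called lower in both (65.0% and 17.3%), and 4 members were called in opposite directions. A direct test of the difference between the responses called 106 members (0.908%), 62 with the WT-labelled response above the KO-labelled one and 44 below. Their adjusted p-values lay between 0.0488 and 0.0499, just under the threshold, and 98 of the 106 were called in the KO-labelled response while 12 were called in the WT-labelled one. Without WT-labelled home cage library 1, WT-labelled exploration library 1, KO-labelled home cage library 2 or KO-labelled exploration library 3 no member was called by limma (1362, 1434, 1289 and 2247 had an unadjusted p under 0.05).

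Fosl2 was the transcription regulator of the activity lists among them, with 2.53 and 3.21 FPKM against 5.05, 6.60 and 3.74 FPKM in the WT-labelled libraries and 8.75 and 12.45 FPKM against 5.75, 4.68 and 5.20 FPKM in the KO-labelled ones. Ndrg1, a stress-responsive gene of glia and neurons, read 3.27 and 5.61 FPKM against 9.82, 7.29 and 4.58 FPKM with overlapping groups, while the KO-labelled libraries went from 27.44 and 54.45 FPKM to 12.64, 4.60 and 5.36 FPKM. For Ndrg1, as for Kit, Rprm, Scn4b and Strip2, the WT-labelled groups overlapped and the difference came with the KO-labelled values.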

How the data were processed

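RNA sequencing of laser-dissected CA1 was analysed from the values the authors deposited, which are FPKM per gene and library: fragments scaled to transcript length and library depth. The submitters' processing notes name HISAT, StringTie, GATK, Bowtie2 and RSEM and the build GRCm38/mm10, with no versions. Strand use is not given in the sources used here, so antisense and overlapping genes are uncertain. The file holds no counts and depth was not estimated, so no count test was run and no interval for counting error is given.

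The 2 blocks of the table were joined on gene ID, and genes in 1 block (1170 and 271) were left out. Members had at least 1 FPKM in at least 2 of the 5 WT-labelled libraries. Symbols of 24 genes read as dates. With limma 3.58.1 in R 4.3.3, log2(FPKM + 1) was fitted over 10 libraries with 1 mean per group and a variance trend (6 residual and 5.72 prior degrees of freedom). Contrasts were the WT-labelled response, the KO-labelled response and their difference, with Benjamini-Hochberg adjustment over the members and a threshold of 0.05. The fit was tested on simulated data. Neil3 was tested by an exact permutation test (scipy). Libraries are numbered in accession order and the numbers pair nothing.

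Genes named were Fos, Arc, Egr1, Npas4 and Neil3, the 12 largest rises and falls among called members whose groups did not overlap, up to 4 called and 2 uncalled genes of each of 41 gene lists, and the 5 largest differences between responses in each direction. Csrnp1, Egr3, Fosb, Nr4a1, Klf2, Sik1, Jun, Bdnf, Homer1, Neurod6 and Scn8a were added after their values were seen. The members and the lists were chosen with earlier results of these data known. Alternatives were size factors or quantile normalization, robust eBayes or no trend, a pseudocount of 0.1, a filter of 5 FPKM or none, the 5 WT-labelled libraries alone, leaving out each library, and removal of length and GC trends, added after seeing the data. Of the members, 11655 had an entry in the RefSeq gene table (GRCm38.p6).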

Additional observations from a re-analysis of the deposited data

Results flagged for a closer look

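In 12 of the named genes the response of the WT-labelled libraries differed from that of the KO-labelled ones by limma's interaction test. The limma adjusted p was 0.0488 to 0.0499 in each. Some settings left 0 calls in this test, and whether these 12 were called under the other settings was not examined. Given as the WT-labelled minus the KO-labelled log2 change, the difference was 2.92 in Ndrg1, 2.74 in Mir703, 2.45 in Rprm, 2.33 in Kit, 2.29 in Kcnf1 and 1.53 in Fosl2. It was -2.52 in Xlr3b, -2.41 in Scn4b, -1.98 in Itga7, -1.88 in Strip2, -1.84 in Bok and -0.827 in Nrxn3. Xlr3b, an X-linked gene with near-identical copies, read 1.94 and 1.37 FPKM in the WT-labelled home cage libraries and 0.85, 0 and 0.73 FPKM after exploration. Bok, listed as a CA3 marker, read 15.59 and 6.44 FPKM against 19.76, 12.88 and 13.98 FPKM in the WT-labelled libraries, and 4.53 and 4.99 FPKM against 28.35, 26.82 and 32.43 FPKM in the KO-labelled ones. Mir703 was also called in the WT-labelled response; it was listed at 0 in both WT-labelled home cage libraries and reached 1 FPKM in exploration libraries only, so the filter took it in through the group where it was high. Xlr3b likewise reached 1 FPKM in home cage libraries only.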

How the results depend on the processing

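With 2 home cage libraries the calls rest on few mice, and environment and table block coincide. Over the fits that left out 1 library, the count of called members ranged from 87 to 1012 (higher 20 to 364, lower 67 to 705), the count called in the difference between responses from 0 to 431, and the Neil3 difference from 12.27 to 13.98 FPKM. No filter on low values gave 440 called (69 higher), of which 324 were shared with the 751. A filter of 5 FPKM gave 496 (294 lower), and the WT-labelled libraries alone 1710 (682 higher, 1028 lower). Removing length and GC trends gave 477 (140 higher, 337 lower) and 42 in the difference between responses. That count was 0 by limma under the pseudocount of 0.1, under no filter, under the 5 FPKM filter and with no variance trend, with 1852, 2571, 1371 and 1862 at an unadjusted p under 0.05. It was 120 with size factors and 136 with quantile normalization. The cause of these shifts was not tested. Of the 77 genes followed under up to 19 alternatives, none changed direction, and 20 of the 76 called ones were called under each alternative that tested them. The unchanged directions say little: settings that alter only the filter, the variance estimate or the KO-labelled libraries cannot move the WT-labelled log2 change. In genes whose groups do not overlap, leaving out 1 library cannot reverse it either. No paired analysis was possible because replicate numbers follow accession order and the groups compared hold different mice. Depth was not estimated, so the precision of low FPKM values is not given.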
